A study of Zea mays with 4 samples.

Results

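Transcript levels are described here for 6 maize (Zea mays) genes of the aleurone and of abscisic acid perception, chosen by their gene IDs: vp1 (GRMZM2G133398), dek1 (GRMZM2G321753), Nkd1 (GRMZM2G129261, also named IDDveg9), Nkd2 (GRMZM5G884137), CAPIP1 (GRMZM2G165567) and PYL6 (GRMZM2G141382). They are 6 of the 39625 gene IDs counted in each library, and each was found in all 4 libraries. RNA was sequenced from whole, field-grown kernels taken 14 days after pollination, with 2 libraries of zmknl1 mutant kernels and 2 of wild type (WT) kernels, each pair from different ears. The mutant is named after KNL1, a scaffold protein of the kinetochore, and its allele and genetic background are not given in the sources used here. The labels name no treatment. Knl1 itself was not analysed here, so the genotype labels were not checked against its level. The comparison asks how these genes differ between zmknl1 and WT kernels.

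The aleurone is the outer cell layer of the cereal endosperm, the tissue that feeds the seedling. Its cells take their fate from surface position, under regulators that include the membrane-bound calpain protease encoded by dek1, the receptor-like kinase encoded by cr4 and the zinc-finger transcription factors encoded by the duplicate genes Nkd1 and Nkd2. The B3-domain transcription factor encoded by vp1 acts with the hormone abscisic acid to drive seed maturation in embryo and aleurone and to hold back germination. Abscisic acid binds receptors of the PYL family, which include the products of CAPIP1 and PYL6. The bound receptor inhibits protein phosphatases of type 2C and so releases the SnRK2 protein kinases, which activate downstream transcription factors.

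Between 16595289 and 22725030 reads were counted in genes per library. WT replicate 2 stood apart: 25.251% of its counts came from its 10 most abundant genes, against 6.743 to 7.77% in the other 3 libraries, and 23.926% of its reads aligned to several places, against 10.863 to 13.489%. Fold changes of the 6 genes and medians of their lists are also given without it. Levels are given as CPM, read counts relative to a library size scaled by TMM, which takes most genes as unchanged between libraries, and fold changes are zmknl1 over WT. The edgeR quasi-likelihood test with Benjamini-Hochberg adjustment over 19519 tested genes called 4 of them at an adjusted p under 0.05, a share of 0.0205%. DESeq2 called 380 genes lower in zmknl1 (2.03% of 18762 genes with an adjusted p) and 299 higher (1.59%). Starchy endosperm markers were found in every library and so were the aleurone genes dek1, cr4 and Sal1, while the embryo, transfer layer and embryo-surrounding markers included genes at 0 in 1 or more libraries.

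Of the 6 genes, vp1, Nkd1, Nkd2 and CAPIP1 had lower levels in both zmknl1 libraries than in either WT library, while dek1 and PYL6 overlapped between the genotypes. All 6 genes passed the filter on low counts. Of these 6 genes 4 had both zmknl1 levels under the lower WT level and 0 had both over the higher WT level, beside 20.0% and 21.9% of all tested genes. The median log2 fold change of the 6 genes was -1.04, beside 0.01 over all tested genes. The edgeR test called 0 of the 6, and 3 of them (vp1, Nkd1 and CAPIP1) were lower at an unadjusted p under 0.05, a limit that 5.30% of tested genes passed in that direction. DESeq2 called vp1 only. The 2 ears per genotype set the precision of every value, and in whole kernels fewer cells of a type and less RNA per cell cannot be told apart.

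**Figure D1:**
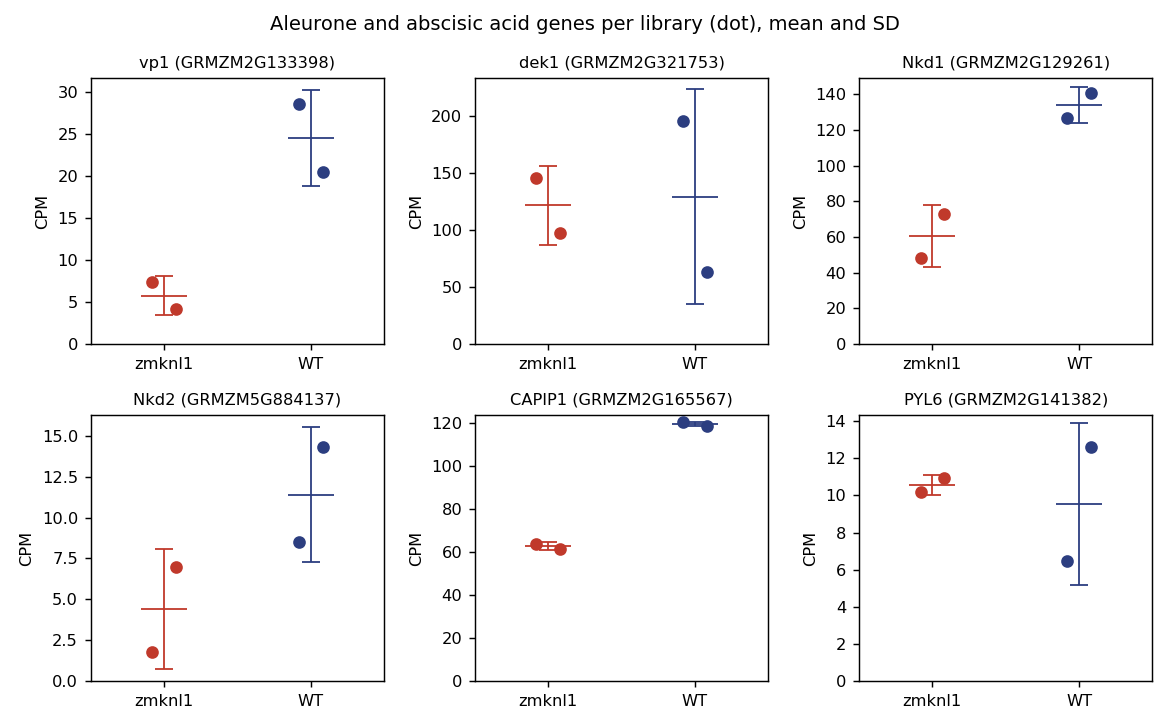
Level of each of the 6 genes in CPM per library, zmknl1 (red) left of WT (blue), with dots for libraries and lines for the mean and SD (n = 2 each). The dots of vp1, Nkd1, Nkd2 and CAPIP1 do not overlap between genotypes, whereas the WT libraries span the zmknl1 libraries for dek1 and PYL6.

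The maturation regulator vp1 had 7.45 and 4.15 CPM in the zmknl1 libraries, against 28.6 and 20.6 CPM in the WT libraries. These levels rest on 170 and 104 reads in zmknl1 and 652 and 241 reads in WT. Both mutant libraries were low, and the highest of them lay well under the lowest WT library. The mean was 5.80 ± 2.33 CPM in zmknl1 and 24.6 ± 5.72 CPM in WT (SD, n = 2 each), a WT level 4.24 times that of zmknl1. The log2 fold change was -2.08 ± 0.53 (SE), lower than that of all but 3.9% of tested genes. Its adjusted p was 0.277 in edgeR, which did not pass, and 0.0205 in DESeq2, which did. Over the 4 pairings of a zmknl1 with a WT library the log2 difference ran between -2.79 and -1.47, so each pairing had the same direction. Without WT replicate 2 the log2 fold change was -2.30 with an edgeR adjusted p of 0.0487. It was -1.83 with an adjusted p of 0.227 without WT replicate 1.

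Embryo markers are given here because vp1 is used in the embryo as well as in the aleurone. Of 4 embryo marker genes, all tested, 3 lay below both WT libraries (20.0% of all tested genes did) and 1 overlapped. The edgeR test called 0 of the 4, all of them lower at an unadjusted p under 0.05, and DESeq2 called 3 lower (2.03% of genes). Their summed level was 191 and 77.1 CPM in the zmknl1 libraries, against 2839 and 545 CPM in the WT libraries. The oil body protein genes ole1 and ole17 had 142 and 60.1 CPM and 30.7 and 12.1 CPM in zmknl1, against 2156 and 449 CPM and 322 and 74.9 CPM in WT. The storage globulin gene glb2 was at 0 in both zmknl1 libraries, against 249 and 5.37 CPM in WT, and its relative glb1, the gene with overlap, had 17.6 and 4.87 CPM in zmknl1, against 112 and 16.0 CPM in WT. Without WT replicate 2 edgeR called all 4 embryo genes, and without WT replicate 1 it called 1, among 805 and 166 called genes of all tested. Between the WT ears the embryo sum differed 5.21-fold and vp1 differed 1.39-fold, both higher in replicate 1. The part of embryo RNA in the vp1 difference was not tested.

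**Figure D2:**
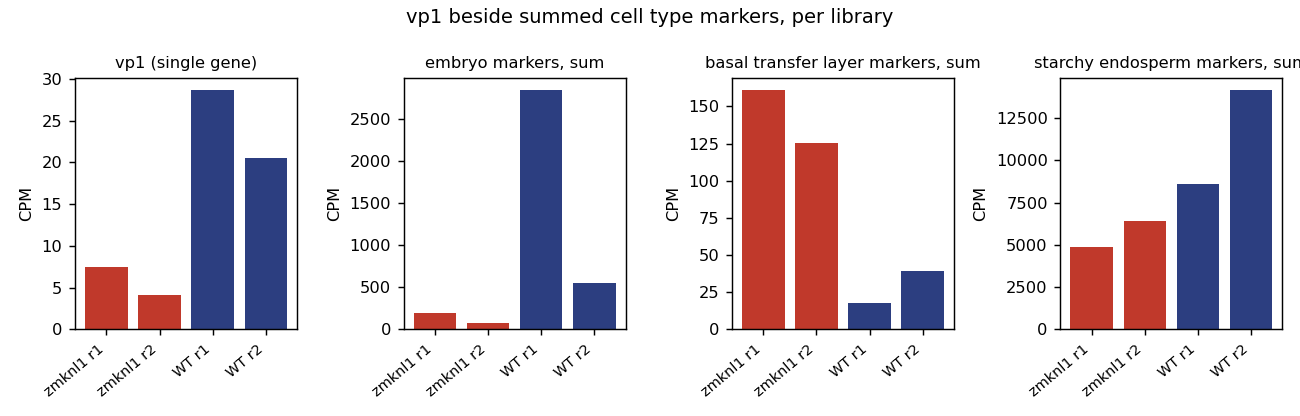
vp1 level and summed levels of embryo, basal transfer layer and starchy endosperm markers in CPM, 1 bar per library, zmknl1 (red) left of WT (blue), on linear axes that start at 0. vp1, embryo and starchy endosperm bars are lower in both zmknl1 libraries, transfer layer bars are higher, and WT replicate 1 holds 2839 CPM of embryo markers.

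The duplicate genes Nkd1 and Nkd2 encode INDETERMINATE-domain transcription factors that limit the number of aleurone cell layers and promote their differentiation. Nkd1 had 48.1 and 72.6 CPM in the zmknl1 libraries, against 127 and 141 CPM in the WT libraries. Its WT libraries were close to each other, and both zmknl1 libraries were well below them. The mean was 60.3 ± 17.4 CPM in zmknl1 and 134 ± 9.90 CPM in WT (SD, n = 2 each), and the log2 fold change was -1.15 ± 0.39 (SE), with an unadjusted edgeR p of 0.0216, an edgeR adjusted p of 0.379 and a DESeq2 adjusted p of 0.172. The direction held in each pairing of libraries, from -1.55 to -0.80, and the log2 fold change was -1.06 without WT replicate 2.

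Nkd2 had 1.80 and 6.99 CPM in zmknl1, against 8.48 and 14.3 CPM in WT. The groups did not overlap, though the higher zmknl1 library came near the lower WT library, and the zmknl1 libraries differed 3.89-fold from each other on 41 and 175 reads. The log2 fold change was -1.37 ± 0.78 (SE), with an edgeR adjusted p of 0.634 and a 95% interval from -3.19 to 0.45. Leaving out a library gave -0.70 without zmknl1 replicate 1, -2.66 without zmknl1 replicate 2 and -0.94 without WT replicate 2. The log2 ratio of Nkd1 to Nkd2 reads was 4.73 and 3.37 in the zmknl1 libraries and 3.90 and 3.29 in the WT libraries, with overlap between the genotypes (mean difference 0.45, exact permutation test, two-sided, p = 0.667, adjusted over 4 ratios 0.667; the smallest p that 2 against 2 libraries allow is 0.333). The difference was -0.22 without zmknl1 replicate 1, 1.13 without zmknl1 replicate 2, 0.76 without WT replicate 1 and 0.15 without WT replicate 2. Reads that align to both copies were set aside by the counting, so values of either copy can miss shared reads.

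The calpain gene dek1, needed to specify aleurone cells, had 146 and 97.5 CPM in zmknl1, against 196 and 63.0 CPM in WT. The WT ears differed 3.11-fold and enclosed both zmknl1 ears. The mean was 122 ± 34.3 CPM in zmknl1 and 130 ± 94.2 CPM in WT (SD, n = 2 each), and the log2 fold change was -0.09 ± 0.57 (SE), with an edgeR adjusted p of 0.979. The 95% interval of the difference ran from -1.44 to 1.26 on the log2 scale, so changes in either direction of that size could not be told from none. The direction turned on the WT ear used, at 0.94 with replicate 1 left out and -0.68 with replicate 2 left out.

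Ratios within a library do not depend on the scaling between libraries. The log2 ratio of vp1 to dek1 reads was -4.29 and -4.55 in zmknl1, against -2.77 and -1.61 in WT. The zmknl1 ratios lay close together and below both WT ratios, with a difference of -2.22 between the means (exact permutation test, two-sided, p = 0.333, the smallest this design allows; adjusted over 4 ratios 0.666). It was -1.64 with WT replicate 2 left out. For Nkd1 to dek1 the log2 ratio was -1.60 and -0.42 in zmknl1 and -0.63 and 1.16 in WT, and the groups overlapped (mean difference -1.28, exact permutation p = 0.667, adjusted 0.667). That difference was -0.38 with WT replicate 2 left out and -2.17 with WT replicate 1 left out.

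Sal1 and cr4, the other aleurone genes of the list, had smaller differences than vp1, Nkd1 and Nkd2. The list held 6 genes, and all had a negative log2 fold change, as did 9678 of 19519 tested genes. When the 10 most abundant genes were left out of library sizes, 5 of the 6 did. The list median was -0.93, and -0.95 without WT replicate 2. Sal1, whose product in endosomal sorting restricts aleurone layers, had 53.9 and 80.3 CPM in zmknl1 and 58.7 and 129 CPM in WT. The receptor-like kinase gene cr4, named after its values were seen, had 23.8 and 14.4 CPM in zmknl1, against 37.3 and 25.3 CPM in WT, which made 4 of 6 list genes below both WT libraries, beside 20.0% of all tested genes. Of the 6, edgeR called 0 and DESeq2 called vp1 alone. Neither passed in edgeR (adjusted p 0.825 for Sal1 and 0.687 for cr4). The 6 list genes, which include vp1, dek1, Nkd1 and Nkd2, summed to 281 and 276 CPM in zmknl1, against 456 and 393 CPM in WT. This sum is therefore not independent of those genes.

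The receptor gene CAPIP1 was even within each genotype. It had 63.9 and 61.3 CPM in the zmknl1 libraries, against 120 and 119 CPM in the WT libraries. The ears of a genotype differed by little, and the genotypes stood clear of each other. The mean was 62.6 ± 1.86 CPM in zmknl1 and 119.5 ± 1.11 CPM in WT (SD, n = 2 each). The log2 fold change was -0.93 ± 0.36 (SE), with an unadjusted edgeR p of 0.0337, an edgeR adjusted p of 0.427 and a DESeq2 adjusted p of 0.299. It stayed between -0.96 and -0.90 with each library left out in turn. The edgeR spread of a gene is drawn toward that of genes of like abundance, and the common biological coefficient of variation was 0.536.

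PYL6 had 10.2 and 10.9 CPM in zmknl1, against 6.46 and 12.6 CPM in WT. Its zmknl1 ears agreed closely and lay between the WT ears, which differed 1.95-fold. The log2 fold change was 0.15 ± 0.56 (SE), with an edgeR adjusted p of 0.963 and a 95% interval from -1.17 to 1.48, and it turned on the WT ear used, at -0.26 with replicate 1 left out and 0.72 with replicate 2 left out. The log2 ratio of CAPIP1 to PYL6 reads was 2.64 and 2.48 in zmknl1, against 4.21 and 3.23 in WT. Both zmknl1 ratios were lower than either WT ratio, with a difference of -1.16 between the means (exact permutation test, two-sided, p = 0.333, the smallest this design allows; adjusted over 4 ratios 0.666). Leaving out WT replicate 1 gave a difference of -0.67, and leaving out WT replicate 2 gave -1.65.

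**Figure D3:**
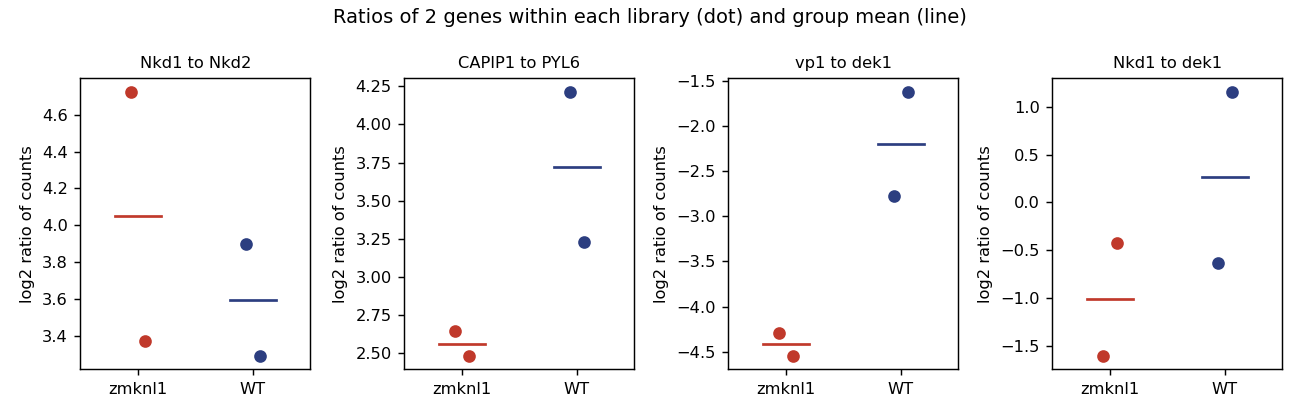
Log2 ratio of the reads of 2 genes in the same library, zmknl1 (red) left of WT (blue), with dots for libraries and lines for group means. The ratios of CAPIP1 to PYL6 and of vp1 to dek1 are lower in both zmknl1 libraries, while those of Nkd1 to Nkd2 and of Nkd1 to dek1 overlap.

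CAPIP1 and PYL6 belong to a list of abscisic acid perception and signal relay genes, in which the receptors, a phosphatase and the SnRK2 kinases were looked at together. Of 22 matched genes 19 were tested: 10 lay below both WT libraries, 3 above and 6 overlapped, beside the 20.0% and 21.9% of all tested genes, and 0 were called by edgeR or DESeq2. The median log2 fold change was -0.66, and -0.47 without WT replicate 2. Among 8 tested receptor genes 4 were below both WT libraries and 1 above. Without CAPIP1, the receptor genes summed to 33.7 and 36.6 CPM in zmknl1, against 38.0 and 56.9 CPM in WT. The phosphatase gene PP2C had 113 and 119 CPM in zmknl1, against 178 and 247 CPM in WT (edgeR adjusted p = 0.511).

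All 7 SnRK2 kinase genes had a negative log2 fold change, as did 9678 of 19519 tested genes. When the 10 most abundant genes were left out of library sizes, 6 of the 7 did. Of the 7, 5 lay below both WT libraries, beside 20.0% of all tested genes, and 0 were called by edgeR or DESeq2. SnRK2.8 had 130 and 95.8 CPM in zmknl1 and 157 and 202 CPM in WT, and SnRK2.11 had 95.3 and 103 CPM in zmknl1 and 87.3 and 139 CPM in WT. Their adjusted p in edgeR was 0.639 for SnRK2.8 and 0.931 for SnRK2.11. The 7 genes together had 365 and 306 CPM in zmknl1, against 482 and 593 CPM in WT.

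Genes listed under abscisic acid synthesis and breakdown went both ways. Of 12 tested, 4 lay below both WT libraries, 3 above and 5 overlapped, beside the 20.0% below and 21.9% above of all tested genes. The edgeR test called 0 of the 12. The median log2 fold change of the 12 was -0.49, or -0.33 without WT replicate 2, beside 0.125 over all tested genes in that fit. Without WT replicate 1 it was 0.13 over 11 genes tested, beside 0.1 over all. The phytoene synthase gene y1 had 17.2 and 18.5 CPM in zmknl1, against 31.4 and 26.9 CPM in WT, with no overlap (edgeR adjusted p = 0.636). The carotene hydroxylase gene crtRB1 had 34.5 and 39.1 CPM in zmknl1 and 54.1 and 34.7 CPM in WT. The aldehyde oxidase gene AO1 had 32.9 and 10.9 CPM in zmknl1 and 20.6 and 7.08 CPM in WT, where the replicates numbered 1 were the higher of each pair. One of the gene IDs that carry the name vp9, the desaturase of zeta-carotene, was called by DESeq2: GRMZM2G454928 had 0 reads in both zmknl1 libraries and 42 and 12 in WT (DESeq2 adjusted p = 0.0499, edgeR 0.305). The reference gives this ID to a pair of neighbouring genes, and the other vp9 ID, GRMZM2G454952, had 10.5 and 7.03 CPM in zmknl1 against 15.0 and 21.4 CPM in WT.

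**Figure D4:**
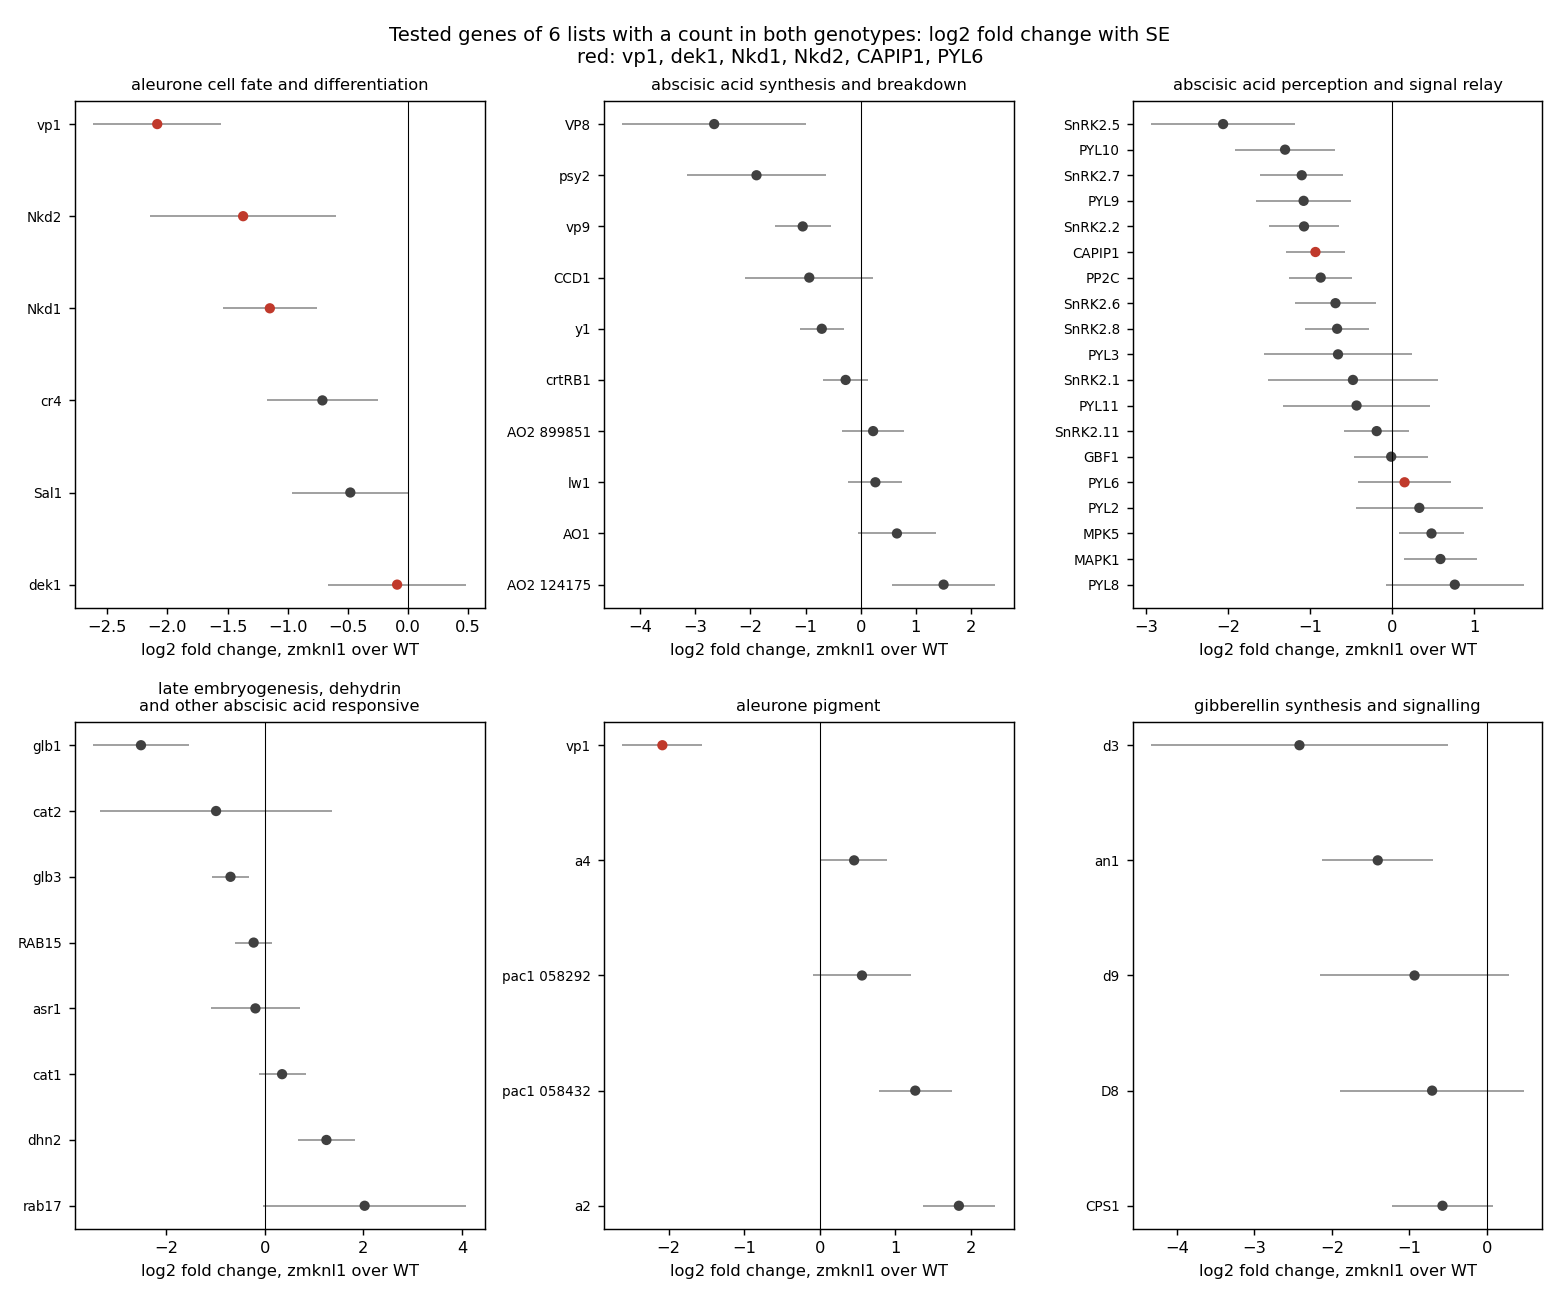
Log2 fold change (zmknl1 over WT) with SE for the tested genes of 6 lists that had a count in both genotypes, 1 row per gene, with vp1, dek1, Nkd1, Nkd2, CAPIP1 and PYL6 in red. Of 19 perception and relay genes 14 lie left of 0 (12 when the 10 most abundant genes were left out of library sizes). Of all 19519 tested genes, 9678 had a negative log2 fold change. The pigment genes other than vp1 lie right of 0.

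Genes that respond to abscisic acid late in seed development had no common direction. Of 9 tested, 3 lay below both WT libraries, 1 above and 5 overlapped, beside 20.0% and 21.9% of all tested genes, and edgeR called 0. Their median log2 fold change was -0.23. It was 0.01 without WT replicate 2 (12 genes tested) and 0.51 without WT replicate 1 (11 genes tested). The medians of all tested genes were 0.125 without replicate 2 and 0.1 without replicate 1. The catalase gene cat1 had 821 and 425 CPM in zmknl1 and 541 and 435 CPM in WT, RAB15 had 322 and 359 CPM in zmknl1 and 391 and 404 CPM in WT, and the globulin gene glb3 had 81.4 and 95.4 CPM in zmknl1 and 118 and 168 CPM in WT. The edgeR adjusted p was 0.878 for cat1, 0.909 for RAB15 and 0.627 for glb3. DESeq2 called glb2 alone, lower in zmknl1 (adjusted p = 0.0111, edgeR 0.229). Both glb1 and glb2 are also on the embryo marker list, so the glb2 call is counted in both lists. The dehydrin gene rab17, named after its values were seen, had 581 and 1 reads in zmknl1 and 137 and 1 in WT, high in the replicates numbered 1 of both genotypes.

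Pigment genes of the aleurone, several of which are known targets of vp1 and its partners, were mostly near or at 0. Of 16 matched genes, 4 had no read in any library, among them the MYB regulator gene c1, and 5 were tested. Of these 5, vp1 lay below both WT libraries, 2 lay above and 2 overlapped, beside 20.0% below and 21.9% above of all tested genes. The edgeR test called 0 of the 5. Their median log2 fold change was 0.56. It was 1.91 without WT replicate 2, when 10 genes were tested, including genes that the filter removed with all libraries. Some of the genes so removed, named below, had no read in WT, so their fold change has no firm size. The medians of 0.56 and 1.91 are therefore not over the same genes. The WD40 regulator gene pac1 had 70.1 and 110 CPM at GRMZM2G058432 in zmknl1, against 24.6 and 50.5 CPM in WT (edgeR adjusted p = 0.431). GRMZM6G474234, an ID that shares the name a2 with another gene, had 45.8 and 25.0 CPM in zmknl1, against 9.31 and 10.4 CPM in WT, and was called higher by DESeq2 (adjusted p = 0.0284) but not by edgeR (adjusted p = 0.287). The gene a4 had 23.3 and 32.2 CPM in zmknl1 and 16.9 and 23.7 CPM in WT. Reads of the bHLH regulator gene r1, the dihydroflavonol reductase gene A1 and the chalcone synthase gene c2, named after their values were seen, numbered 105, 52 and 46 in zmknl1 replicate 1 and 0, 0 and 1 in zmknl1 replicate 2, with 0 in both WT libraries.

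Gibberellin counters abscisic acid in the aleurone at germination. All 5 tested genes of its list had a negative log2 fold change (median -0.93, -0.99 without WT replicate 2 and 0.01 without WT replicate 1), 1 lay below both WT libraries (20.0% of all tested genes did) and 4 overlapped, and 0 were called by edgeR or DESeq2. The gene an1, for an enzyme of gibberellin synthesis, had 10.95 and 7.47 CPM in zmknl1 and 39.6 and 9.12 CPM in WT. CPS1 had 4.82 and 5.87 CPM in zmknl1 and 10.7 and 5.12 CPM in WT, and the DELLA repressor gene D8 had 0.438 and 3.80 CPM in zmknl1 and 1.76 and 5.20 CPM in WT. The spread between the WT ears exceeded the difference between the genotype means for an1, CPS1 and D8. That between the zmknl1 ears did so for D8 but not for an1 and CPS1.

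Taking the 6 lists as 1 set of 74 genes, 55 were tested. Of these, 22 lay below both WT libraries, 9 above and 24 overlapped, beside 20.0% below and 21.9% above of all tested genes. The median log2 fold change of the 55 was -0.66. It was -0.30 over 63 genes tested without WT replicate 2 and -0.19 over 60 genes tested without WT replicate 1. These medians are therefore not over the same genes. Those of all tested genes were 0.125 without replicate 2 and 0.1 without replicate 1. The edgeR test called 0 of them, with 7 lower and 3 higher at an unadjusted p under 0.05, beside 5.30% and 4.94% of all tested genes. DESeq2 called 3 lower and 1 higher, beside 2.03% and 1.59% of genes.

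Markers of other cell types in the kernel were measured beside these lists. All 6 tested transfer layer markers lay above both WT libraries, beside 21.9% of all tested genes, with BETL1 at 0 in all 4 libraries. They summed to 161 and 125 CPM in zmknl1, against 18.0 and 39.4 CPM in WT. Transfer cells take up nutrients at the base of the kernel, and of their genes betl2 had 67.8 and 58.5 CPM in zmknl1, against 15.8 and 21.3 CPM in WT. The gene betl10 had 49.7 and 41.5 CPM in zmknl1, against 1.05 and 13.3 CPM in WT, and betl4 had 24.1 and 7.43 CPM in zmknl1, against 1.14 and 1.11 CPM in WT. These 3 were called higher by DESeq2 (adjusted p 0.0093 for betl2, 0.0474 for betl10 and 0.000261 for betl4), beside 1.59% of genes. Of the 6, edgeR called 0, and their median log2 fold change was 3.17. This median was 2.16 without WT replicate 1. It was 7.23 without WT replicate 2, when the list genes INCW2, MEG1 and betl3 had no WT read.

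Of 6 starchy endosperm markers 3 lay below both WT libraries and 3 overlapped, beside 20.0% of all tested genes below, and edgeR called 0. They summed to 4841 and 6390 CPM in zmknl1, against 8626 and 14140 CPM in WT. Their median log2 fold change was -0.73, or -0.23 without WT replicate 2 and -1.12 without WT replicate 1. Of the subunit genes of the starch synthesis enzyme ADP-glucose pyrophosphorylase, sh2 had 2734 and 2768 CPM in zmknl1, against 3683 and 6026 CPM in WT. The other, bt2, had 1263 and 2027 CPM in zmknl1, against 3702 and 5315 CPM in WT, and was called lower by DESeq2 (adjusted p = 0.0417, edgeR 0.433). The transporter gene bt1 overlapped, with 333 and 979 CPM in zmknl1 and 636 and 1406 CPM in WT.

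The 3 tested embryo-surrounding markers overlapped, and 0 were called by edgeR or DESeq2. ESR1 had 1.58 and 4.63 CPM in zmknl1 and 0 and 9.81 CPM in WT, esr-6 had 1.58 and 0.240 CPM in zmknl1 and 0.264 and 2.05 CPM in WT, and ESR3 had 0.745 and 1.04 CPM in zmknl1 and 0 and 2.302 CPM in WT. WT replicate 2 was the highest library for each of them. The part of these cell types in the values of the aleurone and abscisic acid genes was not tested.

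Among 1539 other named genes with a mean of at least 5 CPM, the profile over the 4 libraries nearest to that of vp1 was that of the heat shock chaperone gene hsp101 (GRMZM2G360681), followed by HSP18 (GRMZM2G404249), at Euclidean distances of 0.174 and 0.195 on centred log2(CPM + 1). For hsp101 the levels were 650 and 430 CPM in zmknl1, against 2388 and 1533 CPM in WT. Nearest to Nkd1 were RTE2 (GRMZM2G082203) at 0.101 and ERA1 (GRMZM2G158024) at 0.224, and nearest to CAPIP1 were POD1 (GRMZM2G137839) at 0.097 and S6K (GRMZM2G080001) at 0.122. These distances describe 4 libraries and carry no test.

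**Figure D5:**
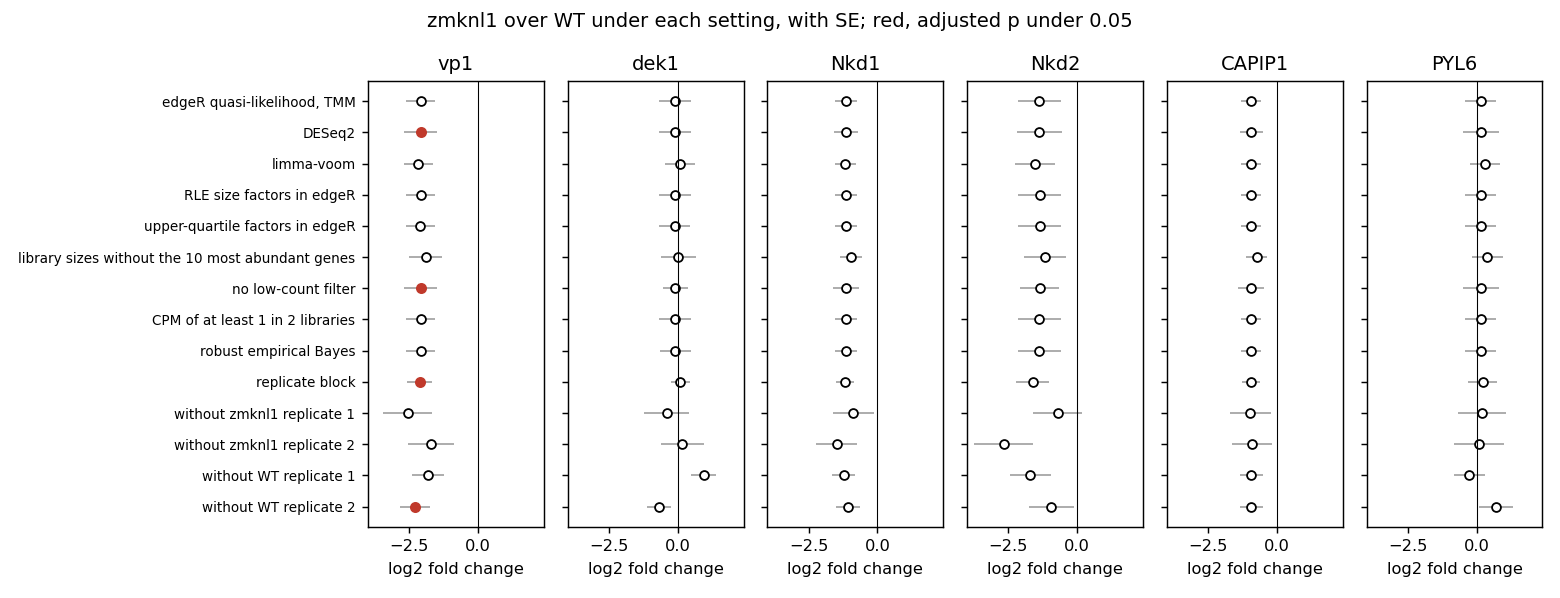
Log2 fold change (zmknl1 over WT) of each of the 6 genes with SE under 14 settings, 1 row per setting, red where the adjusted p is under 0.05. vp1, Nkd1, Nkd2 and CAPIP1 stay left of 0 throughout, vp1 is called under 4 settings, and dek1 and PYL6 cross 0.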

How the data were processed

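Trimming with Trimmomatic 0.36, alignment to B73 RefGen v3 with HISAT2 2.0.1 and counting per gene with HTSeq were done by the authors, per the submitters' processing notes. The strand setting and mode of counting are not given in the sources used here, so reads of overlapping or antisense genes cannot be told apart. The deposited values are raw counts. The 5 closing lines for reads in no gene were left out of library sizes; they held reads in no feature (3.167 to 5.898% of all reads), ambiguous reads (0.876 to 1.215%), low alignment quality (5.64 to 8.106%), unaligned reads (11.377 to 12.492%) and reads aligned to several places (10.863 to 23.926%).

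In R 4.3.3 with edgeR 4.0.16, low genes were removed with filterByExpr at its defaults, libraries were scaled by TMM (factors 1.16 and 1.1 in zmknl1, 1.1 and 0.707 in WT) and zmknl1 was tested against WT with edgeR's quasi-likelihood test, two-sided, without covariates. The SE is the size of the fold change over the root of its F value, and intervals use the test's degrees of freedom. Alternatives used DESeq2 1.42.0, limma 3.58.1 with voom, other scalings and filters, a block for the replicate number, and leaving out each library. List medians kept the same printed value when genes with no read in 1 genotype were set to a bound against 3 counts over that group. Names came from a RefSeq table of assembly Zm-B73-REFERENCE-NAM-5.0, in which 19060 IDs (48.1%) were found; it is not the build used for counting, so no coordinates are printed. Of IDs matched to 10 lists by name, 9 whose other names pointed to another protein or were unclear were left out. Named list genes are the tested ones if 4 or fewer, otherwise the 3 with the highest mean CPM and any called by edgeR or DESeq2; others are marked where they appear. The members and lists were chosen with earlier results of these data known.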

Additional observations from a re-analysis of the deposited data

How the results depend on the processing

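The log2 fold changes of vp1, Nkd1, Nkd2 and CAPIP1 were negative under all 13 alternatives run. The adjusted p of vp1 passed 0.05 with DESeq2 (-2.08), without a low-count filter (-2.08) and with the replicate block (-2.12, adjusted p 0.0190 in edgeR); with a library left out its log2 fold change ran from -2.56 to -1.72, and it passed without WT replicate 2 only (adjusted p 0.0487). dek1 turned positive with limma-voom (0.08), library sizes without the 10 most abundant genes (0.03) and the replicate block (0.10), and ran from -0.68 to 0.94 with a library left out. PYL6 ran from -0.26 to 0.72 and turned negative without WT replicate 1. The Nkd1 to Nkd2 ratio difference ran from -0.22 to 1.13. The cause of these turns was not tested. The setting without the 10 most abundant genes moved the median of all genes to 0.21. Fits with a library left out take the lone library to vary like the other genotype's pair.

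The number of called genes, 4 in the edgeR test, was 679 with DESeq2, 0 with limma-voom (2183 at an unadjusted p under 0.05), 715 without a low-count filter, 642 with the replicate block, and 19 to 805 with a library left out (19 without zmknl1 replicate 1, 35 without zmknl1 replicate 2, 166 without WT replicate 1 and 805 without WT replicate 2). Among all genes with an adjusted p, calls were 679 of 18762 with DESeq2. They were 715 of 27309 without a low-count filter and 642 of 19519 with the replicate block. Beside these, called genes of the 6 lists numbered 4, 5 and 6. With DESeq2 and with the block, 55 list genes were tested. List genes above the WT libraries numbered 9, and 13 to 19 with a library left out. Those below numbered 22, and 26 to 33. Such positions also became more frequent among all tested genes, from 21.9% above and 20.0% below with all libraries. Without WT replicate 1, 26.7% of tested list genes lay above the WT library kept, beside 37.8% of all. Below it lay 43.3%, beside 34.8%. Without WT replicate 2 the shares were 28.6% above, beside 41.7%, and 52.4% below, beside 37.7%. Same-numbered libraries deviated together (correlation 0.455 over 13193 genes), but the labels do not say that a number marks a shared ear or day, so the block is an alternative only. Low counts limit Nkd2, and 2 ears per genotype limit every comparison.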
